A study of Homo sapiens with 5 samples.

Results

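The mitochondrial ribosomal proteins are the 77 genes whose symbols begin with MRPL or MRPS followed by a number and at most 1 letter, and whose mean was at least 10 counts over the 5 libraries. Of 26364 genes listed, 77 symbols matched and all 77 reached that mean, 48 of them MRPL and 29 MRPS. The lowest mean was 11.0 counts, for MRPS28, so no matching gene lay just outside the limit. The RNA came from tumours of HT-29, an established line of human colon cancer, grown under the skin of female NOD SCID mice, which lack T and B cells. The mice were 5 weeks old when obtained and spent 2 weeks on a diet. Methionine-free food gave 2 libraries, food without tryptophan and niacin gave 1, food without methionine, tryptophan and niacin (the combined omission) gave 1, and normal food gave 1. The labels name no genotype or drug that set the groups apart, and the HT-29 cells had been grown in complete medium in all of them. Whether separate mice gave the 2 methionine-free libraries is not stated, so a p-value here covers the spread between samples alone, and that spread may be technical. The titles of the combined omission and normal libraries follow another style than those of the remaining 3, and if that style marks a difference in handling, it cannot be told apart from diet in the comparisons across the styles.

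Mitochondrial ribosomes translate the few proteins encoded by mitochondrial DNA, all of them subunits of the respiratory chain and ATP synthase. Their ribosomal RNAs come from the mitochondrial genome, but the proteins are encoded in the nucleus, made in the cytosol and imported. The large subunit (MRPL) forms the peptide bond, and the small subunit (MRPS) binds the mRNA and reads its codons. Some of these proteins have bacterial relatives and others occur only in mitochondria. By structure, MRPS30 and MRPS18A sit in the large subunit despite their names, and MRPS36 belongs to the alpha-ketoglutarate dehydrogenase complex, so 50 members are large and 26 are small subunit proteins.

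Short stretches around the starts of 9 members are shown. These members were chosen from those with the highest or lowest differences between diets and a motif of a transcription factor near the start. Each is given in the direction of the gene, from RefSeq on GRCh38.p14, with the motif in capitals: AAGATGG is the core of the YY1 motif and CCGGAAG that of the ETS family, and CCATCTT and CTTCCGG are their other strands.
MRPL36 (chr5:1799855-1799881, minus strand): ccccccgccgCCATCTTccttcctggc
MRPL33 (chr2:27771701-27771727, plus strand): gggccgtgccCCGGAAGcagttgttgt
MRPL54 (chr19:3762651-3762677, plus strand): ccactgacgtCTTCCGGaaacgtgcac
MRPS31 (chr13:40771206-40771232, minus strand): aggcgccaggCCGGAAGcggaagagag
MRPS21 (chr1:150293840-150293866, plus strand): gtaatttccgCTTCCGGtagtgagaac
MRPL42 (chr12:93467512-93467538, plus strand): ggattgaaacAAGATGGcgggttcgtg
MRPL48 (chr11:73787801-73787827, plus strand): atttcagaagCTTCCGGaactaaaatg
MRPL50 (chr9:101398579-101398605, minus strand): gatctcatcgAAGATGGcggcgcgatc
MRPS23 (chr17:57850042-57850068, minus strand): ggagcagccgCTTCCGGttccggtagc
The capitals begin 34 bases before the start in MRPL36 and 8 bases before it in MRPL33, but 23 bases after it in MRPL50. Other members, among them MRPL28, MRPS22 and MRPS27, also stood at an end of a comparison with such a motif near the start and are not shown.

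Windows reaching 250 bases before and 50 bases after the start were at hand for 68 members. On either strand, AAGATGG occurred in 24 of the 68 windows (35.3%), against 10.4% of the 7709 tested genes with a window and 7.11% of all 27305 genes with one. CCGGAAG occurred in 29 (42.6%), against 24.3% of tested genes and 12.2% of all genes. By name, of the MRPL genes 15 of 41 held AAGATGG and 17 held CCGGAAG, and of the MRPS genes 9 of 27 and 12 did so. MRPS30 and MRPS18A, which sit in the large subunit, are among the 9. The palindromic NRF1 motif was in 1 window (1.47%), that of MRPL17, against 2.78% of tested genes and 1.52% of all genes, and the E-box CACGTG was in 9 (13.2%), against 13.3% and 8.77%. AAGATGG contains ATG, so it can overlap a start codon. The letters were chosen after several lengths of each motif had been searched, and a match is a description of letters, not a bound site.

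The methionine-free libraries held 553502 and 678618 counts, the tryptophan/niacin-free library 613604, the combined omission 433930 and the normal library 1088084. A count was worth 0.909 to 2.27 CPM, the depth-scaled unit used here after TMM scaling, and the median member had a mean of 31.6 counts. All 10 colon epithelial markers were detected in every library, summing to 12530 to 15440 CPM, highest in methionine-free replicate 2. The 12 markers of stroma, vessels, leukocytes and fat summed to 48.77 to 72.34 CPM, with 2 to 5 of them at 1 count or more, and COL1A2, COL3A1, DCN, PDGFRB, VWF and PTPRC were at 0 in all 5 libraries. The host was a mouse and counts were per human gene symbol, so the stromal sums do not measure how much mouse stroma a tumour held. In such bulk tissue, fewer cells of a type and less RNA per cell cannot be told apart.

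Summed over the 77 genes, mitochondrial ribosomal protein RNA made up 4131 and 5948 CPM in the methionine-free libraries, 3593 CPM in the tryptophan/niacin-free library, 3483 CPM in the combined omission and 3408 CPM in the normal library. Both methionine-free libraries stood above the other 3, and replicate 2 stood well above replicate 1. The 48 MRPL genes gave 2582 and 3904 CPM in the methionine-free libraries, 2365 CPM in the tryptophan/niacin-free library, 2296 CPM in the combined omission and 2151 CPM in the normal library. The 29 MRPS genes gave 1548 and 2045 CPM in the methionine-free libraries, 1228 CPM in the tryptophan/niacin-free library, 1187 CPM in the combined omission and 1257 CPM in the normal library. The MRPL sum was thus lowest on normal food, while the MRPS sum of the normal library lay above those of the combined omission and of the library without tryptophan and niacin.

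**Figure D1:**
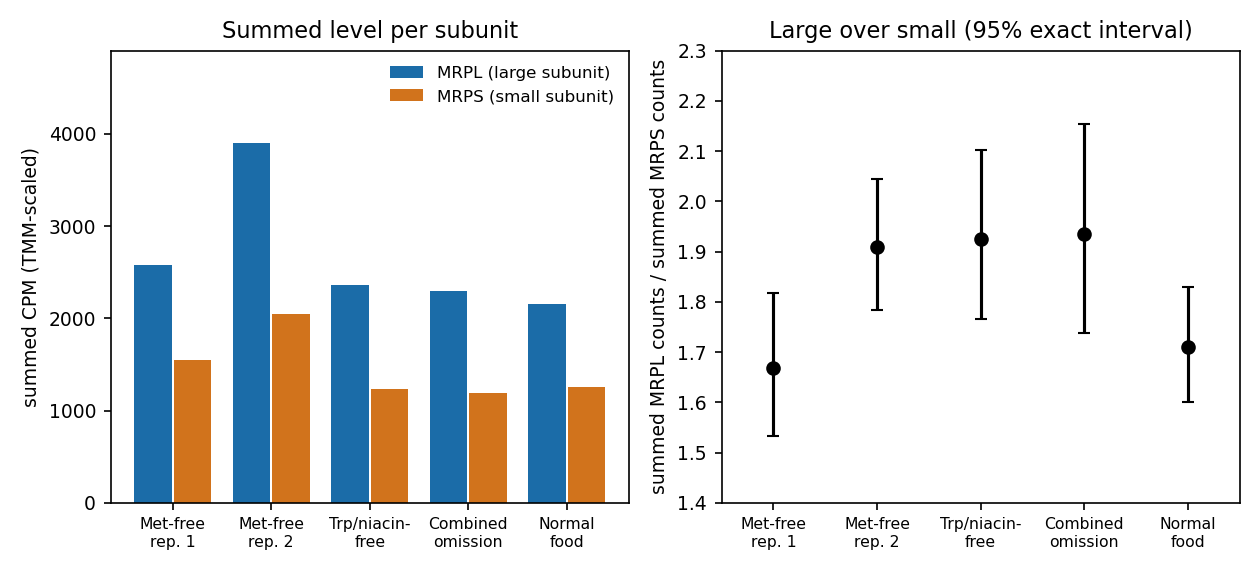
Summed CPM of the 48 MRPL and 29 MRPS genes and the ratio of MRPL to MRPS counts with its 95% exact interval, per library. Both sums are highest in methionine-free replicate 2 (3904 and 2045 CPM), and the ratio runs between 1.668 and 1.935.

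The ratio of large to small subunit counts was 1.668 (95% exact binomial interval 1.532 to 1.817) in methionine-free replicate 1 and 1.909 (1.784 to 2.044) in replicate 2. It was 1.926 (1.765 to 2.102) in the tryptophan/niacin-free library, 1.935 (1.739 to 2.155) in the combined omission and 1.711 (1.6 to 1.829) in the normal library. These intervals cover counting error only. Relative to normal food, the ratio differed by -0.04 on the log2 scale in methionine-free replicate 1 (interval -0.19 to 0.12), by 0.16 in replicate 2 (0.02 to 0.3), by 0.17 in the tryptophan/niacin-free library (0.01 to 0.33) and by 0.18 in the combined omission (-0.0 to 0.36). The methionine-free replicates differed from each other by as much, 0.19 for replicate 2 against replicate 1 (0.04 to 0.35), so with subunits assigned by name no diet stood apart from normal food beyond the spread between replicates. With subunits assigned by structure, the differences from normal food were 0.01 and 0.12 in the methionine-free replicates, 0.12 in the tryptophan/niacin-free library and 0.2 in the combined omission. Of these, the interval left out 0 in the combined omission alone (0.01 to 0.39). The methionine-free replicates differed by 0.1, with an interval of -0.06 to 0.27 that covers the 0.2 of the combined omission. This is 1 library, and the interval holds counting error only.

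In methionine-free against normal food, 73 of the 77 genes had a log2 difference above 0, with a median of 0.60, against 0.00 over all 10005 genes tested. No member passed an adjusted p of 0.05 in edgeR's quasi-likelihood test, where 0.23% of all genes tested did, all of them lower. At an unadjusted p under 0.05 there were 10 members (13.0%), all higher, in edgeR, against 7.68% of all genes tested, of which 247 were higher and 521 lower. DESeq2 gave 0 members at that p and limma-voom 9, and neither of these tools called a member after adjustment. The median was 0.66 for MRPL and 0.55 for MRPS. By role, it was 0.53 for the 30 large subunit proteins listed with bacterial relatives and 0.69 for the 20 listed as mitochondrial only. It was 0.54 for the 16 small subunit proteins listed with relatives and 0.55 for the 10 listed as mitochondrial only. MRPS18A was counted among the 20 and MRPS18B among the 10, although both are paralogs of MRPS18C, which was counted among the 16. Whether the classes differ was not tested. Single members had an SD of 0.38 in replicate 1 and 0.43 in replicate 2 against normal food, beside counting errors of 0.40 and 0.35. Without methionine-free replicate 2 the member median was 0.30, and without replicate 1 it was 0.78. This comparison runs across the styles of title, whereas within a style the median was -0.53 for tryptophan/niacin-free against methionine-free food and -0.06 for the combined omission against normal food.

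**Figure D2:**
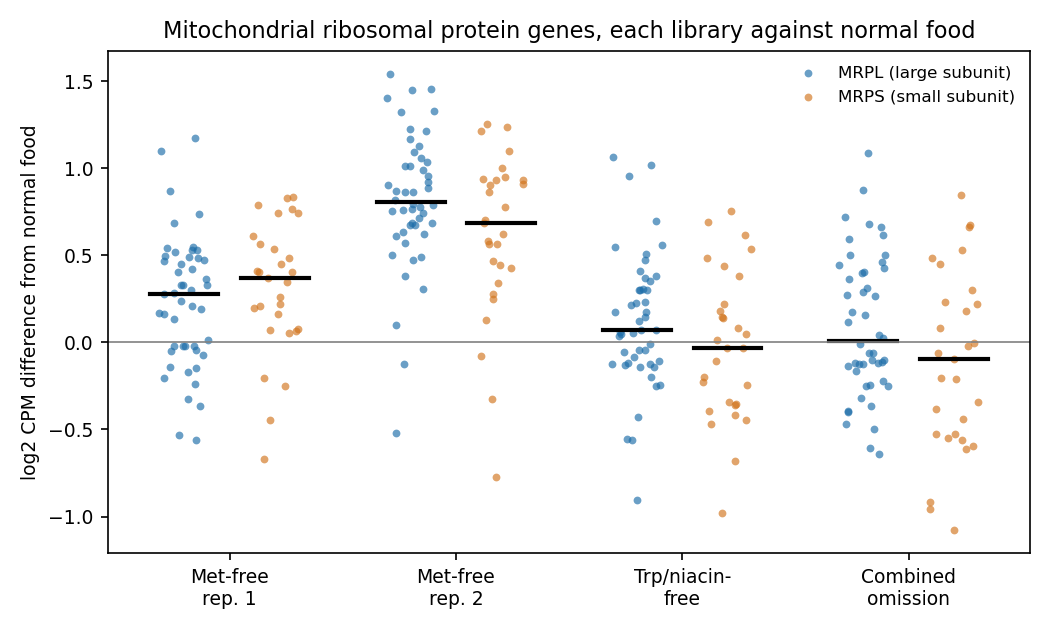
Log2 difference in CPM from the normal library for each member in methionine-free replicates 1 and 2, the tryptophan/niacin-free library and the combined omission, split into MRPL and MRPS. Medians over all 77 members are 0.30 and 0.78 in the methionine-free libraries, 0.05 without tryptophan and niacin and -0.06 in the combined omission.

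MRPL36, a small zinc-binding protein of the large subunit, had 44.8 and 58.7 CPM in the methionine-free libraries, 31.4 CPM in the tryptophan/niacin-free library, 25.0 CPM in the combined omission and 18.2 CPM in the normal library. Both methionine-free values lay above the rest. Its log2 difference from normal food, 1.50 (SE 0.506), had the smallest adjusted p of the members in this comparison, 0.315 in edgeR. MRPL36 overlaps NDUFS6 in RefSeq, and the strand setting of the counting is not given in the sources used here.

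MRPL39, a large subunit protein found in mitochondria only, had 12.5 and 30.1 CPM in the methionine-free libraries, 20.4 CPM in the tryptophan/niacin-free library, 22.7 CPM in the combined omission and 9.09 CPM in the normal library. Its methionine-free values lay either side of those of the other omission diets, and all 4 omission libraries were above normal (log2 difference 1.24, SE 0.666 for methionine-free food; adjusted p 0.699, edgeR). MRPL54, also found in mitochondria only, had 25.1 and 52.3 CPM in the methionine-free libraries, 7.84 CPM in the tryptophan/niacin-free library, 15.9 CPM in the combined omission and 17.3 CPM in the normal library, a difference of 1.17 (SE 0.547; adjusted p 0.604, edgeR) for methionine-free food. The tryptophan/niacin-free library was lowest for this gene.

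MRPS11, which lies on the platform of the small subunit, had 41.2 and 55.5 CPM in the methionine-free libraries, 25.1 CPM in the tryptophan/niacin-free library, 36.3 CPM in the combined omission and 21.8 CPM in the normal library. MRPL33, a small large subunit protein with a bacterial relative, had 30.5 and 60.3 CPM in the methionine-free libraries, 22.0 CPM without tryptophan and niacin, 29.5 CPM in the combined omission and 20.9 CPM in the normal library. Both genes were highest in the methionine-free libraries, with log2 differences of 1.15 (SE 0.493) for MRPS11 and 1.12 (SE 0.507) for MRPL33 and adjusted p-values of 0.552 and 0.593 in edgeR.

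At the other end, MRPS31, a small subunit protein of mitochondria only, had 14.3 and 19.0 CPM in the methionine-free libraries, 11.0 CPM in the tryptophan/niacin-free library, 18.2 CPM in the combined omission and 24.5 CPM in the normal library, which was highest. Its log2 difference in methionine-free food was -0.54 (SE 0.585; adjusted p 0.891, edgeR). MRPL19, which reaches the face between the subunits, differed by -0.40 (SE 0.446), MRPS25, found in mitochondria only, by -0.26 (SE 0.44), MRPL42, likewise, by -0.09 (SE 0.427), and MRPS21, with a bacterial relative, by 0.08 (SE 0.416). MRPS25 had 57.3 and 28.6 CPM in the methionine-free libraries against 50.9 CPM in the normal library, and MRPS21 had 46.6 and 88.8 CPM against 64.5 CPM, so the replicates lay on either side of normal in both. Without methionine-free replicate 2 their differences took the opposite sign, 0.16 for MRPS25 and -0.45 for MRPS21.

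Of the stalk, where elongation factors dock, MRPL10 had 48.4 and 46.0 CPM in the methionine-free libraries, 53.3 CPM in the tryptophan/niacin-free library, 40.8 CPM in the combined omission and 42.7 CPM in the normal library, the narrowest spread of the 3. MRPL12, which in bacteria is the protein of the stalk's mobile arm, had 109 and 155 CPM in the methionine-free libraries, 69.0 CPM without tryptophan and niacin, 74.9 CPM in the combined omission and 75.5 CPM in the normal library, highest in both methionine-free libraries (log2 difference 0.81; adjusted p 0.656, edgeR). MRPL11, at the stalk's base, had 41.2 and 108 CPM in the methionine-free libraries, against 60.9 CPM in the normal library, and its difference of 0.31 was -0.53 without replicate 2. The paralogs MRPS18A, MRPS18B and MRPS18C had log2 differences of 0.55, 0.60 and 0.26 (edgeR, adjusted p 0.835, 0.79 and 0.959). MRPS18C was the lowest in level, 21.5 and 22.2 CPM in the methionine-free libraries against 18.2 CPM in the normal library.

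**Figure D3:**
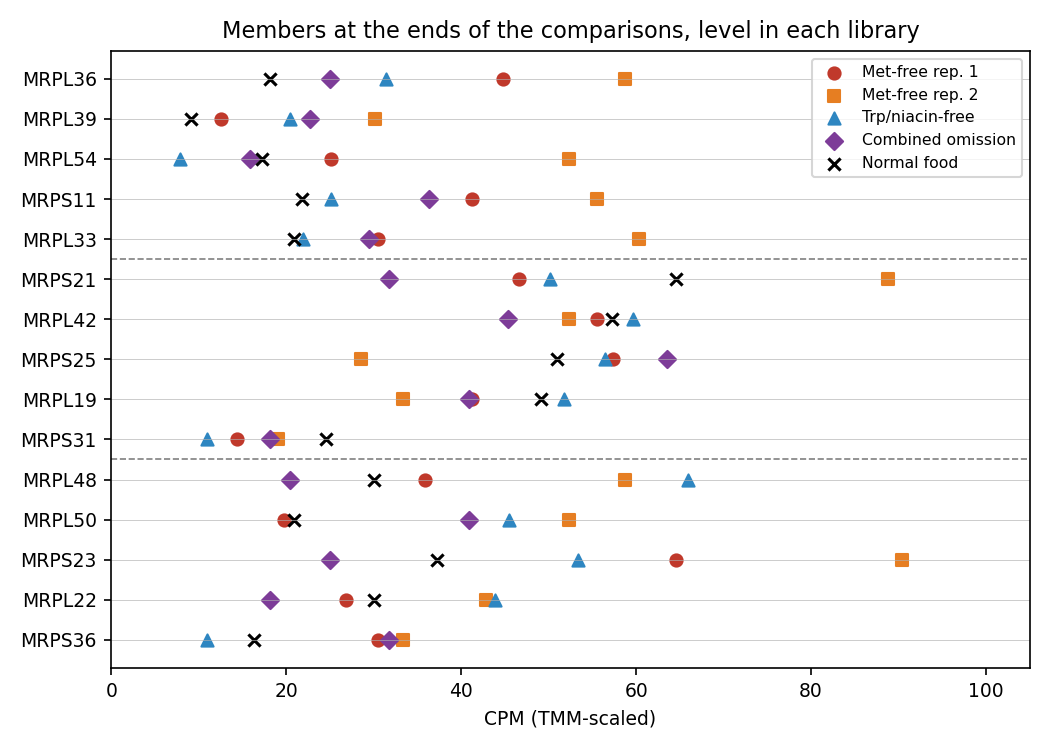
CPM (TMM-scaled) of named members in each library: above the first dashed line the 5 highest and below it the 5 lowest in methionine-free against normal food, then the members past the rule of size between lone libraries. MRPL36 lies highest in both methionine-free libraries (44.8 and 58.7 CPM), while MRPL48 is highest in the tryptophan/niacin-free library (65.9 CPM).

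In rank across the libraries, both methionine-free libraries lay above the normal library for 55 of 77 members (71.4%), against 34.7% of all genes tested. They lay below it for 3 members, against 3557 of 10005 genes. They lay above all 3 others for 38 members (49.4%), against 16.9%, and below all of them for 0, against 1603 of 10005 genes. Replicate 2 was the highest library for 61 members (79.2%), against 31.1% of all genes tested, replicate 1 for 6 (7.79%, against 13.5%), the tryptophan/niacin-free library for 6 (7.79%, against 17.1%), the combined omission for 3 (3.9%, against 21.6%) and the normal library for 1 (1.3%, against 16.8%). The lowest value stood in replicate 2 for 2 members (2.6%, against 30.2% of all genes), in replicate 1 for 8 (10.4%, against 1399 of 10005 genes), in the tryptophan/niacin-free library for 19 (24.7%, against 17.7%), in the combined omission for 30 (39.0%, against 23.0%) and in the normal library for 18 (23.4%, against 1504 of 10005 genes).

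Within methionine-free food, the median member was 0.50 higher on the log2 scale in replicate 2 than in replicate 1, with 64 of 77 above 0, 0.60 for MRPL and 0.35 for MRPS. By a rule of size (a log2 difference of at least 1 and a 95% exact interval of the ratio that leaves out 1), 10 members were higher in replicate 2 and 0 lower, where 2.43% of all genes were higher and 6.6% went past it in either direction. MRPL1, a protein of the exit side stalk in bacteria, had 44.4 CPM (28 counts) in replicate 2 and 10.8 CPM (6 counts) in replicate 1, the widest gap at 1.79. MRPL11 followed at 1.33, with MRPL50 at 1.29, and MRPS34 and MRPL55 at 1.16 each. This gap between replicates was nearly as wide as the median difference of methionine-free from normal food.

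Length moved with these differences. The median member transcript is 1147 bases long (461 to 3332), against 2584 bases over all genes, and 74 of 77 members are shorter than that. All genes were put into 4 bins of like size by length. Among the shortest bin, with a median of 1158.5 bases, the median log2 difference from normal food was 0.14 in methionine-free replicate 1 and 0.49 in replicate 2, and among the longest bin, with a median of 5387.5 bases, it was -0.11 and -0.44. The 63 members in the shortest bin had medians of 0.30 and 0.79, so they lay above genes of like length in both libraries. In the library without tryptophan and niacin and in the combined omission, no length bin of all genes moved by more than 0.03. With the trend on length taken out of each library, the median of the 77 was 0.20 and 0.35 in the methionine-free replicates, 0.05 in the tryptophan/niacin-free library and -0.04 in the combined omission. In the edgeR test with that trend as an offset, the median in methionine-free food was 0.36, 65 members were above 0 and the smallest adjusted p was 0.145. The part of RNA quality or library preparation in the trend was not tested.

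**Figure D4:**
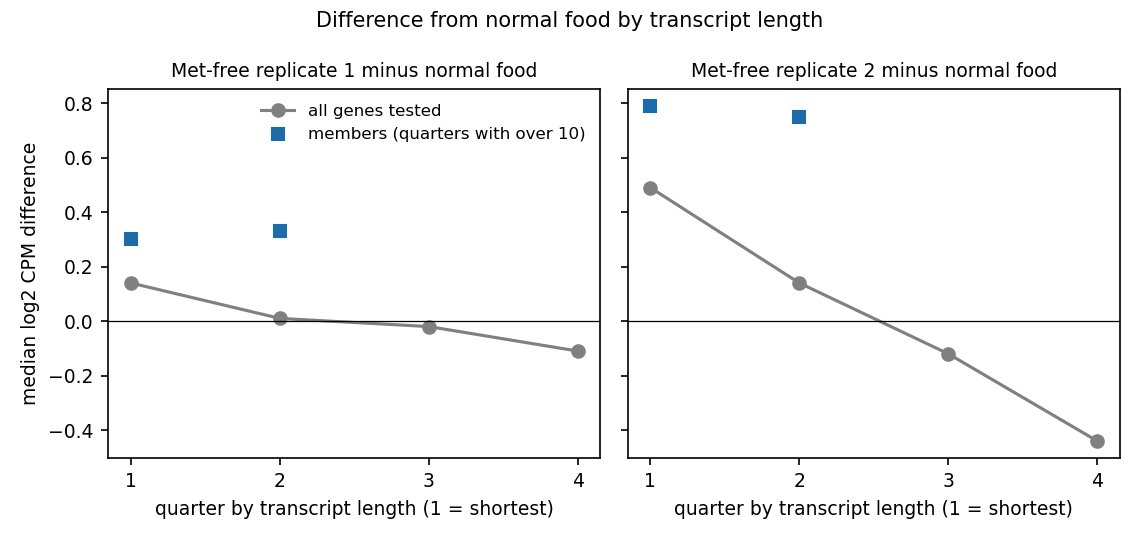
Median log2 difference from normal food by bin of transcript length in methionine-free replicates 1 and 2, for all tested genes and for members in the bins that hold most of them. All genes slope with length in both replicates, more steeply in replicate 2 (0.49 to -0.44).

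Food without tryptophan and niacin set beside normal food gave a median log2 difference of 0.05 over the members, 0.07 for MRPL and -0.03 for MRPS, with 43 of 77 above 0. Each is a lone library with no replicate of its own, so the pair was described by size and no test was run on it. By the rule of size, 2 members were higher and 0 lower, where 3.52% of all genes went past it. MRPL48, found in mitochondria only, had 65.9 CPM (42 counts) in the tryptophan/niacin-free library against 30.0 CPM (33 counts) in the normal library, a ratio of 2.2 (1.36 to 3.58). MRPL50, likewise, had 45.5 CPM (29 counts) against 20.9 CPM (23 counts), a ratio of 2.18 (1.22 to 3.94). MRPL39, MRPS28 and MRPL36 followed at log2 differences of 0.95, 0.75 and 0.70, and at the low end stood MRPS31 (-0.98), MRPL54 (-0.90), MRPS30 (-0.68), MRPL28 (-0.56) and MRPL27, which lies at the peptidyl transferase centre in bacteria (-0.55). The SD over the 77 differences was 0.41, beside a counting error of 0.40. The differences include a prior count of 2 and the counting error does not, so these values are not on quite the same scale.

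The combined omission set beside normal food gave a median of -0.06 over the members, 0.01 for MRPL and -0.10 for MRPS, with 35 of 77 above 0. This pair of lone libraries was likewise described by size and not tested. No member passed the rule of size, where 2.02% of all genes did. The largest differences were MRPL39 at 1.09, MRPL50 at 0.88, MRPS36 at 0.85, MRPL17 at 0.72 and MRPL55 at 0.68, and the lowest were MRPS22 at -1.08, MRPS21 at -0.96, MRPS17 at -0.91, MRPL22, which lines the exit tunnel, at -0.64 and MRPS27 at -0.61. MRPS22, found in mitochondria only, had 11.3 CPM in the combined omission against 27.3 CPM in the normal library, with a ratio interval of 0.126 to 1.08. The SD of the differences was 0.46, beside a counting error of 0.46 computed in the same way.

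Against the tryptophan/niacin-free library, the combined omission had a median of -0.08, with 33 members above 0 and 44 below. By the rule of size 4 members differed, where 4.04% of all genes did. MRPL48 had 20.4 CPM (9 counts) in the combined omission against 65.9 CPM (42 counts) in the tryptophan/niacin-free library, and MRPL22 had 18.2 CPM (8 counts) against 43.9 CPM (28 counts). MRPS23, a small subunit protein of mitochondria only, had 25.0 CPM (11 counts) against 53.3 CPM (34 counts), and MRPS36 had 31.8 CPM (14 counts) against 11.0 CPM (7 counts). The first 3 were lower and MRPS36 was higher in the combined omission. The SD of the member differences in this pair was 0.54, beside a counting error of 0.50.

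Against methionine-free food, the combined omission had a median log2 difference of -0.63, with 64 of 77 members below 0, and the tryptophan/niacin-free library one of -0.53, with 64 of 77 below 0. Both comparisons share the methionine-free libraries. No member passed adjustment in edgeR, where 0.03% of all genes tested did for the combined omission and 0.0% for the tryptophan/niacin-free library. At an unadjusted p under 0.05 in edgeR, 9 members (11.7%) were lower and 0 higher in the combined omission. Of all 10005 genes tested, 294 were lower and 465 higher there (7.59% in either direction). In the tryptophan/niacin-free library 10 members (13.0%) were lower and 0 higher, against 232 lower and 259 higher of all genes (4.91%). DESeq2 gave 0 members at that p in both, and limma-voom 5 for the combined omission and 10 for the tryptophan/niacin-free library, with 0 after adjustment in each tool. MRPS23 had 25.0 CPM in the combined omission against 64.5 and 90.4 CPM in the methionine-free libraries, below both (log2 difference -1.63, SE 0.55; adjusted p 0.386, edgeR). MRPL54 had 7.84 CPM in the tryptophan/niacin-free library against 25.1 and 52.3 CPM in the methionine-free libraries (-2.29, SE 0.712; adjusted p 0.552, edgeR). Without methionine-free replicate 2 the medians were -0.27 and -0.18, and with the length trend taken out they were -0.32 and -0.20.

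The interaction of the omissions, which asks whether leaving out methionine differs with and without tryptophan and niacin, had a median log2 of -0.65, with 66 of 77 members below 0. No member passed adjustment in edgeR, where 0.43% of all genes did. At an unadjusted p under 0.05 in edgeR, 6 members (7.79%) were lower and 0 higher. Of all 10005 genes tested, 195 were lower and 450 higher at that p (6.45% in either direction). DESeq2 gave 0 members and limma-voom 3. MRPL48 had the smallest adjusted p, 0.279 (log2 -2.34, SE 0.787, edgeR), and MRPS23 the next at 0.334 (-2.15, SE 0.761, edgeR). An additive model of the omissions has no interaction term and unequal library numbers, so its values are not even averages over the other omission. In it, leaving out methionine gave a member median of 0.35 and leaving out tryptophan and niacin one of -0.28. No member was called in edgeR for either, where 0.0% of all genes were for both. At an unadjusted p under 0.05 in edgeR, 5 members (6.49%) were higher and 0 lower without methionine. Of all genes, 84 were higher and 88 lower (1.72% in either direction). Without tryptophan and niacin 1 member (1.3%) was lower and 0 higher, against 77 lower and 87 higher of all genes (1.64%). The counts at that p were 1 and 0 in DESeq2 and 6 and 0 in limma-voom. Without methionine-free replicate 2 the interaction median was -0.32, and the medians of the additive model were 0.16 for methionine and -0.09 for tryptophan and niacin.

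In level, the members ranged widely. In CPM per kilobase of transcript, the mean over the 5 libraries ran from 9.29 in MRPS17 to 243 in MRPL49, with a median of 40.2, 42.5 for MRPL and 37.0 for MRPS. After MRPL49 came MRPL51 at 163, MRPL23 at 130, MRPL13 at 123 and MRPS34 at 102 CPM per kilobase. The lowest after MRPS17 were MRPL22, MRPL50, MRPS14 and MRPS31, at 10.4 to 11.9. With the longest transcript in place of the median one, MRPL49 stood at 61.2 and MRPL51 at 72.9, and 3 of the 5 highest stayed among the 5 highest, but only 1 of the 5 lowest stayed among the 5 lowest. MRPL49 overlaps SYVN1 and MRPL23 overlaps MRPL23-AS1 and H19 in RefSeq. In all, 20 members overlap another counted gene, 56 do not and 1 could not be matched.

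Genes of the same machinery were set beside the members in methionine-free against normal food. The median was 0.51 for the 6 subunits with other names, 0.32 for a translation list of 15 genes and 0.29 for an assembly list of 26, with no gene called in edgeR. Both lists are broader than their names. The translation list includes LRPPRC, SLIRP and OXA1L, and the assembly list POLRMT, TFAM, TFB2M, PNPT1, SUPV3L1 and NDUFAB1, which are not assembly factors in the strict sense. CHCHD1, a small subunit protein, had 41.2 and 50.8 CPM in the methionine-free libraries, 29.8 CPM without tryptophan and niacin, 27.2 CPM in the combined omission and 16.4 CPM in the normal library (log2 difference 1.48; adjusted p 0.396, edgeR), and GADD45GIP1 was the lowest of that list at 0.00. In the translation list MTRF1L, a release factor, was highest at 0.91 and MTIF3, an initiation factor, lowest at -0.50. In the assembly list TFB1M, an rRNA methyltransferase, was highest at 1.58 (SE 0.847; adjusted p 0.689, edgeR) and SUPV3L1, an RNA helicase, lowest at -0.48. TFB1M rests on few counts, 6 and 13.5 in the methionine-free libraries and 5.5 in the normal library. The 78 cytosolic ribosomal proteins had a median of 0.57 and the 76 nuclear subunits of the respiratory chain and ATP synthase one of 0.55, both close to the members' 0.60. In the tryptophan/niacin-free against the normal library, 7 of 78 cytosolic ribosomal proteins were above 0, with a median of -0.14, against 43 of 77 mitochondrial ones with a median of 0.05.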

How the data were processed

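RNA was sequenced in 5 tumour libraries. The authors deposited expected counts (estimated counts that need not be whole) per gene symbol, which were rounded before any test. Per the submitters' processing notes, the build was hg19, and the tools named are featureCounts with Subread 2.0.0, Bowtie2 2.2.8, TopHat2 2.1.1 and SAMtools 0.1.18. Not given in the sources used here are the annotation, the strand setting, how multiply placed reads were counted and whether mouse reads were removed. Mouse reads under human symbols, overlapping genes and near-identical copies are therefore uncertain.

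Groups came from the treatment labels. filterByExpr kept 10005 genes and removed 16359, and all 77 members were kept. Tests were edgeR 4.0.16 quasi-likelihood tests in R 4.3.3 with TMM scaling and Benjamini-Hochberg adjustment over 10005 genes at 0.05. An SE given with an edgeR difference is the size of that difference divided by the square root of its F statistic. A model with 1 mean per diet left 1 residual degree of freedom, and an additive model of the omissions left 2. In the model with 1 mean per diet, all spread came from the methionine-free pair. It was shared across genes and lent to the lone libraries, which have no replicate of their own. Alternatives were DESeq2 1.42.0, limma-voom (limma 3.58.1), other scaling, no filter, a length trend (loess, span 0.5) as offset, a prior count of 0.5 in place of 2, other member floors and each methionine-free replicate left out. Scripts were tested on simulated data. Transcript lengths were medians over GENCODE basic transcripts. Named genes were the 5 highest and lowest in each diet against normal food and in level, those past a threshold, those farthest apart between replicates, the stalk, the MRPS18 paralogs and MRPS36, and the highest and lowest of each other list. The members and lists were chosen with earlier results of these data known.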

Additional observations from a re-analysis of the deposited data

How the results depend on the processing

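In all 6 tested comparisons no member was called under any alternative run, and the sign of the member median held in all 9 comparisons. Some members came near the threshold in edgeR with the length trend taken out. The smallest adjusted p was then 0.0582 in the combined omission against methionine-free food and 0.0696 in the interaction. The range of the median was 0.30 to 0.78 in methionine-free against normal food, -0.82 to -0.27 for the combined omission and -0.78 to -0.18 for tryptophan/niacin-free food against methionine-free food, and -0.88 to -0.32 for the interaction. In each of these the value nearest 0 was that without methionine-free replicate 2 and the farthest that without replicate 1. Leaving out either replicate leaves no residual degree of freedom with 1 mean per diet, so these are values with no test. In the combined omission against normal food, 1 member, MRPS21, passed the rule of size with a prior count of 0.5, against 0. Against the normal library, 20 of 77 members lay below 0 in methionine-free replicate 1 and 5 in replicate 2, where 4 did in the fit of both. The signs that follow are for the 5 highest and 5 lowest members, the stalk and the MRPS18 paralogs only. Without replicate 2 the sign turned for MRPS25 (0.16), MRPS21 (-0.45) and MRPL11 (-0.53), against -0.77, 0.45 and 0.80 without replicate 1. With the length trend taken out it turned for MRPS21 (-0.18), MRPS18C (-0.19) and MRPL10 (-0.01). The cause was not tested. Over all genes, methionine-free against normal food gave 23 calls in edgeR, 1 in DESeq2 and 100 with the length trend taken out. The combined omission against methionine-free food gave 3 in edgeR, 0 in DESeq2, 9 in limma-voom and 67 with the trend taken out, tryptophan/niacin-free food 0 and 11 with it taken out, and the interaction 43, 2 in DESeq2 and 123 with it taken out. No paired analysis was possible because only methionine-free food has more than 1 library. A count was worth up to 2.27 CPM, so members of few counts carry wide intervals.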

Other observations

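Copies and antisense genes of the members had few counts and were not part of the member list. MRPL23-AS1 had 2 and 0 counts in the methionine-free libraries, 2 in the tryptophan/niacin-free library, 1 in the combined omission and 2 in the normal library. The pseudogene MRPS31P5 had 6.5 and 7 counts in the methionine-free libraries, 9.5 in the tryptophan/niacin-free library, 5 in the combined omission and 9.5 in the normal library, and MRPL45P2 had 3.5 and 10.5 counts in the methionine-free libraries, 4 in the tryptophan/niacin-free library, 4 in the combined omission and 10 in the normal library. MRPL42P5 reached at most 0.5 counts.

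The members with AAGATGG in their window had a median log2 difference of 0.55 in methionine-free against normal food, and those without it 0.68. For CCGGAAG these medians were 0.66 with and 0.56 without. The choice of letters followed a search over several lengths, and no test was run on them.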
